A study of Mus musculus with 17 samples.

Results

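The question was how far pressure-overloaded hearts that had received 29P remained from sham hearts that had received saline. For this, 6 TAC 29P libraries were set against 5 Sham Veh libraries, which are 11 of the 17 libraries of the study. The libraries were chosen by their labels for surgery and treatment, and no measured value entered that choice. The authors sequenced 20 libraries and removed 3 before deposit. The genes compared were the 16218 of 21798 genes in the file with at least 0.5 counts per 1 M reads (CPM) in 3 or more libraries.

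All mice were male C57Bl6/J animals, 7 to 8 weeks old at surgery. TAC, transverse aortic constriction, narrows the aortic arch so that the left ventricle pumps against a raised pressure, and Sham mice had no constriction. 29P is an orally given peptide prodrug, from which the body releases a cyclic RGD peptide that binds αvβ3 integrin at the site where matrix proteins dock. TAC 29P mice were constricted and received 6 gavages of 50 µg/kg 29P over 2 weeks, starting 1 week after surgery. Sham Veh mice received volume-matched saline on the same schedule, as did the 3 TAC Veh mice, and the 3 Sham 29P mice received 29P. The apex of the left ventricle was taken 3 weeks after surgery and its polyA RNA was sequenced, with a different animal number for each library, so p-values measure the spread between these animals. TAC 29P and Sham Veh mice differed in both surgery and treatment, and in that pair the parts of each cannot be told apart. By their labels TAC 29P and Sham 29P mice shared the treatment and differed in surgery, but also in runs of animal numbers, with 5 of the 6 TAC 29P libraries and 1 of the 3 Sham 29P libraries in the largest run. The samples are whole tissue, so fewer cells of a type and less RNA per cell cannot be told apart.

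Under raised pressure, cardiomyocytes enlarge and take up again a set of genes of the fetal heart, among them natriuretic peptides, slow myosin and skeletal actin. Cardiac fibroblasts become activated and lay down collagen and other matrix proteins. Over time the muscle uses less fatty acid, its main fuel, and its mitochondrial genes are less expressed.

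The 11 libraries held an estimated 15.9 to 23.8 M reads, and all levels below are CPM divided by TMM factors (trimmed means of log ratios between libraries), called scaled CPM. Differences are on the scale of log2 of scaled CPM plus 0.1, from 1 limma fit over all 17 libraries, and called means a Benjamini-Hochberg adjusted p of 0.05 or less. As a check of the labelled tissue, summed cardiomyocyte markers (9 genes) were at 40069 to 52470 scaled CPM in TAC 29P and 55333 to 60484 in Sham Veh. Libraries S18 (TAC 29P), S19 and S20 (both Sham Veh) stood apart by transcripts of atrial muscle. Myl7, the atrial regulatory light chain, was at 299 scaled CPM in S18, 1071 in S19 and 752 in S20, and between 0 and 0.962 in the other 8 libraries. Sln, the atrial inhibitor of the calcium pump, was at 144, 528 and 345 against 0 to 0.793. Animal numbers in the labels place these 3 libraries in a run of their own, so the run and the atrial transcripts cannot be told apart, and counts of the lists below are given with and without them. Mitochondrially encoded genes took 25.1 to 29.4% of CPM in TAC 29P and 29.1 to 38.8% in Sham Veh, which moves every other gene when CPM are left unscaled. Under TMM scaling the median log2 difference of all genes was 0.01, whereas it was 0.31 in the deposited CPM. Totals that leave out mitochondrially encoded genes closed only part of such a gap. For nuclear oxidative phosphorylation genes the median was −0.51 under TMM scaling, −0.34 with those totals and −0.21 in the deposited CPM. What makes up the rest was not tested.

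**Figure D1:**
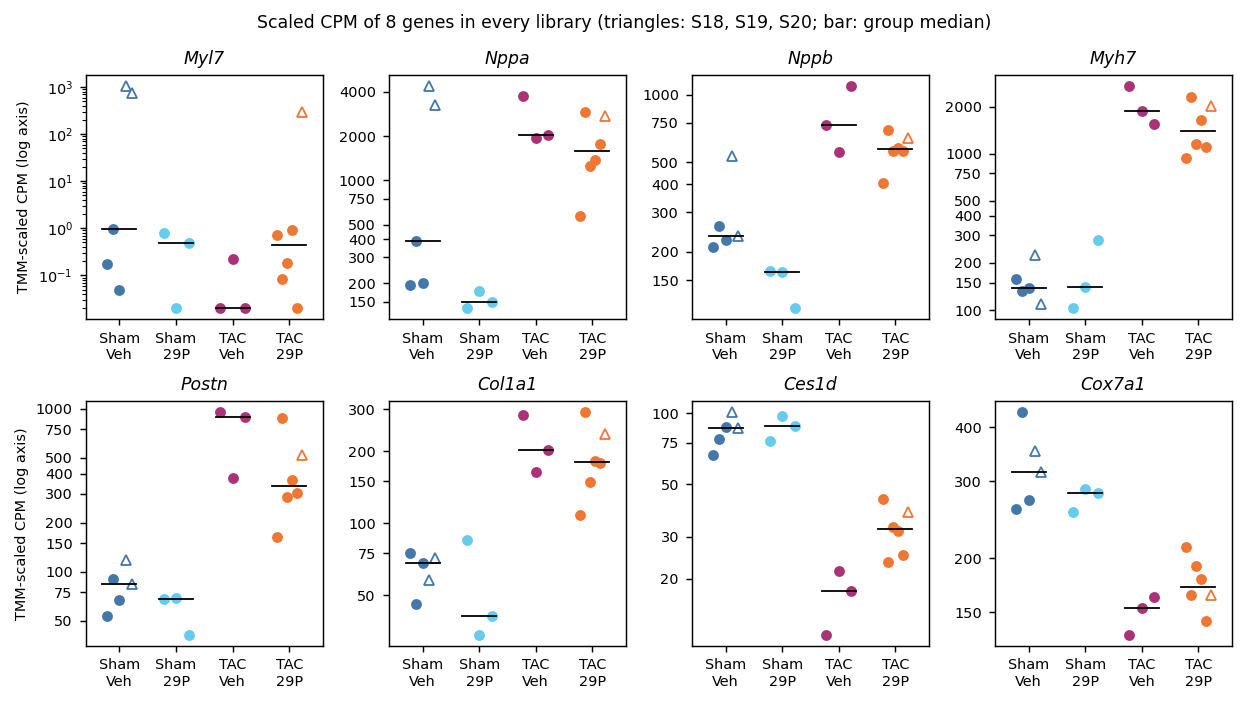
Scaled CPM (log axes) of 8 genes in each library, with 1 point per library, group medians as bars and open triangles for S18, S19 and S20; in the Myl7 panel, values under 0.02 are drawn at 0.02. TAC 29P points lie apart from Sham Veh points for Nppb only where S19 is set aside, and for Myh7, Postn, Col1a1, Ces1d and Cox7a1 in all libraries, while the Nppa values of S19 and S20 exceed every TAC 29P value.

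After treatment, TAC hearts still carried more matrix and fetal-gene RNA and less RNA of energy metabolism than Sham Veh hearts. In limma, 664 genes (4.09% of those tested) were higher and 793 (4.89%) were lower in TAC 29P than in Sham Veh. Counts of list members below are to be read against these shares. The lists overlap in part, for example by Thbs4 and Ccn2 or by Sdha and Sdhb, so their counts are not independent of each other. The higher genes had the wider differences. Of them 186 differed by at least 1 on the log2 scale, against 59 of the lower genes, and their median log2 difference was 0.75 against −0.51. All 6 TAC 29P libraries lay above all 5 Sham Veh libraries for 517 genes (3.19%) and below them for 716 genes (4.41%). Without S18 to S20, with 5 libraries against 3, 179 genes (1.1%) were higher and 143 (0.882%) lower. Of the 664 higher genes 159 were also called there, and of the 793 lower genes 136. All of them kept their sign, but the libraries of that fit had also entered the choice of these genes. In the deposited CPM the split was 4959 higher to 215 lower. There all 664 higher genes were called as higher, whereas 748 of the 793 lower genes kept their sign and 212 were called as lower. Within the largest run of animal numbers alone, with 5 TAC 29P and 2 Sham Veh libraries, 463 genes were higher and 231 lower.

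Under TMM scaling the treated hearts were not clearly farther from Sham Veh, across all genes, than Sham Veh hearts from each other. The distance of a library was the median absolute log2 difference over all genes from the mean of the Sham Veh libraries, with its own library left out. Each Sham Veh library was thus measured from a mean of fewer libraries than a TAC library was, which tends to raise its distance. The permutation tests against Sham Veh therefore lean toward no difference, and cannot show that treated hearts lay as near as Sham Veh hearts. It was 0.237 in S5, 0.255 in S6, 0.199 in S13, 0.245 in S19 and 0.198 in S20, and in TAC 29P it ran from 0.225 through a median of 0.263 to 0.293. The groups overlapped, with means of 0.261 ± 0.030 (SD, n = 6) and 0.227 ± 0.026 (SD, n = 5) and an exact two-sided permutation p of 0.0909. The result depended on scaling, since in the deposited CPM the difference was 0.114 (exact two-sided permutation p = 0.00866). Under TMM scaling without Sham Veh S5 the difference of 0.034 became 0.053, with an exact permutation p of 0.00952. Without S18 to S20 the means were 0.242 and 0.238, a difference of 0.0037 (exact two-sided permutation p = 0.893, 56 splits). TAC Veh libraries lay at 0.294 ± 0.037 (SD, n = 3), and TAC 29P did not differ from them beyond the spread (exact two-sided permutation p = 0.238). With only 84 splits that test cannot give very small p-values.

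**Figure D2:**
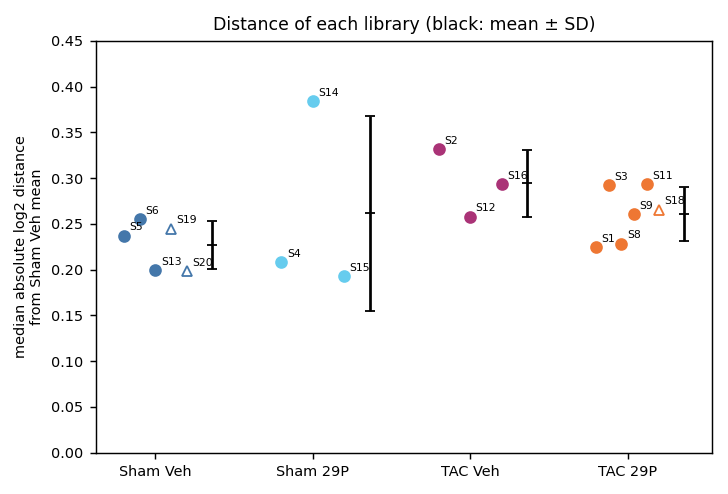
Median absolute log2 distance of each of the 17 libraries from the mean of the Sham Veh libraries over 16218 genes, with 1 point per library, open triangles for S18 to S20 and group mean ± SD in black. TAC 29P libraries (0.225 to 0.293) overlap Sham Veh libraries (0.198 to 0.255), and the farthest library is S14 of Sham 29P at 0.384.

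Genes of hypertrophic stress were higher in TAC 29P. Of 30 members tested, 19 were higher in TAC 29P, 0 were lower and 11 were not called, with a median log2 difference of 0.91. Without S18 to S20, 14 were called and the median was 1.10. Myh7, the slow β-myosin heavy chain of the fetal ventricle, was at 157, 132, 138, 225 and 110 scaled CPM in Sham Veh libraries S5, S6, S13, S19 and S20. In TAC 29P it ran from 932 through a median of 1405 to 2320, so that the lowest treated heart stood well above the highest Sham Veh heart. The log2 difference was 3.29 (SE 0.27, limma adjusted p = 4e-06), a 9.78-fold difference.

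Acta1, the skeletal α-actin, was at 266, 204, 388, 566 and 297 scaled CPM in the Sham Veh libraries and at 1262 to 3476 in TAC 29P, without overlap (log2 difference 2.79, SE 0.29, limma adjusted p = 8.02e-05). Ankrd1, a stretch-responsive protein of the sarcomere and nucleus, was at 1502, 1747, 1544, 2614 and 1152 against 2952 to 5336, again without overlap (log2 difference 1.25, adjusted p = 0.00287). Xirp2, an actin-binding protein of the intercalated disc, differed by 1.34 (adjusted p = 0.00232), with 1455 to 2856 scaled CPM in TAC 29P against 611 to 1137 in Sham Veh. Thbs4, a matricellular thrombospondin also made by stressed muscle, ran from 9.15 to 170 in TAC 29P (log2 difference 3.05, adjusted p = 0.00437). Its lowest treated heart fell within the Sham Veh range. Gdf15, a stress-induced cytokine, differed by 1.44 at low levels of 1.67 to 6.91 scaled CPM in TAC 29P against 0.5 to 2.14 in Sham Veh (adjusted p = 0.0382). The members with the smallest differences were Csrp3, a muscle LIM protein of the Z-disc (0.12, adjusted p = 0.476), and Tuba8, a muscle tubulin (−0.08, adjusted p = 0.772).

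Nppb, which encodes B-type natriuretic peptide, was at 209, 260, 226, 535 and 235 scaled CPM in Sham Veh and ran from 406 through 571 to 697 in TAC 29P. S19 lay inside the TAC 29P range, and the log2 difference was 1.05 (SE 0.22, adjusted p = 0.00784) with all libraries and 1.26 (adjusted p = 0.0113) without S18 to S20. Nppa, which encodes atrial natriuretic peptide, was at 194, 385, 201, 4391 and 3226 in Sham Veh and at 569 to 2888 in TAC 29P. The 2 atrial-marked Sham Veh libraries thus exceeded every TAC 29P library, and the other 3 lay below every one. Its log2 difference was 1.08 (SE 0.69, adjusted p = 0.329) in all libraries and 2.48 (SE 0.38, adjusted p = 0.00869) without S18 to S20. Ccn2, a matricellular growth factor, followed the same outline, with 45.1, 62.9, 82.4, 318 and 263 scaled CPM in Sham Veh against 107 to 644 in TAC 29P and a log2 difference of 0.83 (adjusted p = 0.325), or 1.39 (adjusted p = 0.072) without those libraries. Corin, the protease that matures atrial natriuretic peptide, was lower in TAC 29P (log2 difference −0.67, adjusted p = 0.0179), with 131 to 194 in Sham Veh against 80.6 to 163 scaled CPM in TAC 29P, the highest treated value being S18.

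The promoters of 4 of these muscle genes are printed from RefSeq (GRCm38.p6), because these are fetal or stretch genes that were called together and cardiac factors bind upstream DNA. Each run is the 250 bases before the RefSeq transcription start, 5′ to 3′ on the strand of the gene. Capitals mark matches on either strand to the MCAT element, bound by TEAD factors and searched as CATTCC. They also mark the element of GATA factors, searched as AGATAA, and CArG, the core of the serum response element.
Myh7: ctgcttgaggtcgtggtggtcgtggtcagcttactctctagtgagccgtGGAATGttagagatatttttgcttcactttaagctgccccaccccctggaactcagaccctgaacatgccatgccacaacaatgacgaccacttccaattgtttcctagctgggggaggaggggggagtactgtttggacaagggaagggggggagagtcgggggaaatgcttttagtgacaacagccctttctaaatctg
Acta1: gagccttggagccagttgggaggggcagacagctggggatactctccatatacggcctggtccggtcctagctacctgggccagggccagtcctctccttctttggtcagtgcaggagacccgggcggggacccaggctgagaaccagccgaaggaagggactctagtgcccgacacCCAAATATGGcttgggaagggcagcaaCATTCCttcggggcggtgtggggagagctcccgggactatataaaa
Nppb: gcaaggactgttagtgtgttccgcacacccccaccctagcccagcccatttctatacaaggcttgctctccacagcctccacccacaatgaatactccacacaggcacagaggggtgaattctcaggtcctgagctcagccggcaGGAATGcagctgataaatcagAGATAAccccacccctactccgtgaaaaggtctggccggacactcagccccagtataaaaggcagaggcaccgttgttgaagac
Ankrd1: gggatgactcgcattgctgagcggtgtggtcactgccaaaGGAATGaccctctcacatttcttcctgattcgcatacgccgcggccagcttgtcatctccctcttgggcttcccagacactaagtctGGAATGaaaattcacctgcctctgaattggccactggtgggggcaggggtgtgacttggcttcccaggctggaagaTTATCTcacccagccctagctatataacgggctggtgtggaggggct
The runs lie at chr14:54994627-54994876 (minus strand, Myh7), chr8:123894776-123895025 (minus, Acta1), chr4:147985650-147985899 (plus, Nppb) and chr19:36119845-36120094 (minus, Ankrd1). GENCODE vM21 puts other gene starts, at 123894751 for Acta1, 147985788 for Nppb and 36120099 for Ankrd1. By that annotation the Nppb run reaches into its gene and the Ankrd1 run lies inside its own. Distances here are from the RefSeq start. MCAT matched in all 4, and 2 times in Ankrd1. These are 4 of only 6 stress genes that held it, and other called stress genes are not printed, so the 4 do not stand for the list. In Acta1 the match lay 46 to 41 bases before the start, downstream of a CArG match at 73 to 64 bases. GATA matched in Nppb at 84 to 79 bases and in Ankrd1 at 47 to 42 bases. Among the 26 of 30 stress genes with a promoter in the table, 6 (23.1%) held MCAT, 3 (11.5%) GATA and 3 (11.5%) CArG, against 12.6%, 10.3% and 1.4% of 27025 promoters, 1 per gene. Of the 11297 tested genes with a promoter in the table, the shares were 10.8%, 5.85% and 1.16%. These are matches of letters, and binding was not measured. In the mm10 annotation GENCODE vM21, Myh7 (chromosome 14, 54970684 to 54994626) overlaps the antisense transcript Mhrt, and whether reads were counted by strand is not given in the sources used here.

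Genes of adult contraction and excitation were lower or near Sham Veh. Of 33 members, 0 were higher and 10 lower, with a median log2 difference of −0.34, and 4 were lower without S18 to S20. Atp2a2, the calcium pump SERCA2 of the sarcoplasmic reticulum, was at 9545, 7374, 7954, 8346 and 9011 scaled CPM in Sham Veh and at 4650 to 7026 in TAC 29P. The groups did not overlap and the log2 difference was −0.46 (SE 0.14, adjusted p = 0.0492), though it was −0.47 (adjusted p = 0.188) without S18 to S20. Kcnv2, a silent potassium channel subunit, had the largest fall of the list, with 8.21 to 11.4 scaled CPM in Sham Veh and 1.79 to 4.45 in TAC 29P (log2 difference −1.51, adjusted p = 0.00451). Tnni3, cardiac troponin I, was at 2983 to 3686 in Sham Veh against 1835 to 2357 in TAC 29P (−0.70, adjusted p = 0.00362). Hrc, a calcium-binding protein of the same store, was at 785 to 884 in Sham Veh against 405 to 634 in TAC 29P (−0.64, adjusted p = 0.00485).

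Kcnj3, a G-protein-gated potassium channel that is strong in atria, differed by −1.42 (adjusted p = 0.0438), with 190 and 119 scaled CPM in S19 and S20 as its highest Sham Veh values and 110 in S18 as its highest TAC 29P value. Without those libraries its difference was −1.23 (adjusted p = 0.045). The adult α-myosin gene Myh6 ran from 8875 to 15419 in TAC 29P and from 12674 to 18765 in Sham Veh, overlapping, with a log2 difference of −0.31 (adjusted p = 0.316). Kcnj11 and Slc8a1, an ATP-gated potassium channel and the sodium-calcium exchanger, both had log2 differences of 0.00. The direction of this list depended on scaling, since in the deposited CPM its median was −0.03, with 4 members higher and 4 lower. The 3 called cardiomyocyte markers, Tnni3, Myl2 (ventricular light chain, −0.54, adjusted p = 0.0304) and Tnnt2 (cardiac troponin T, −0.53, adjusted p = 0.021), were all lower. Their part in the counts of muscle genes was not tested.

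Genes of the extracellular matrix were higher in TAC 29P. Among fibrillar and fibril-associated collagens, 8 of 12 were higher, 0 lower and 4 not called, with a median log2 difference of 1.08, and the count was 8 as well without S18 to S20 (median 1.06). Col1a1, a chain of type I collagen and the main fibril of scar, was at 74.8, 45.8, 68.1, 57.7 and 71.5 scaled CPM in Sham Veh and at 108 to 292 in TAC 29P, without overlap (log2 difference 1.53, SE 0.25, adjusted p = 0.0024). Col3a1, type III collagen, was at 228, 187, 215, 287 and 226 against 312 to 798 (1.12, adjusted p = 0.00616). Col12a1, a collagen that coats fibrils, was at 0.849 to 2.46 scaled CPM in Sham Veh and 3.14 to 32.9 in TAC 29P (2.72, adjusted p = 0.00482), and Col16a1 and Col5a2 differed by 1.38 and 1.19. Col11a2 and Col27a1 were the members nearest to Sham Veh, at −0.26 (adjusted p = 0.628) and 0.62 (adjusted p = 0.105).

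Of 20 other collagens, 13 were higher and 0 lower, with a median log2 difference of 0.73, and 6 were higher without S18 to S20. Col8a1 and Col8a2, network collagens of vessel walls, differed by 1.85 (adjusted p = 0.00101) and 2.61 (adjusted p = 0.0126). Col8a1 was at 35.2, 48.7, 42.3, 47.7 and 23.8 scaled CPM in Sham Veh and at 96.8 to 249 in TAC 29P. Col4a3, a basement membrane chain, differed by 1.13 (adjusted p = 0.00451), and Col15a1, of the zone beneath basement membranes, by 1.23 (adjusted p = 0.00175). Col26a1 was called at TAC 29P levels of only 0.504 to 1.28 scaled CPM (1.56, adjusted p = 0.0495), and Col13a1, a transmembrane collagen, was at 0.02 (adjusted p = 0.964).

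Matricellular and matrix-processing genes held several of the widest differences. Of 73 members, 38 were higher and 0 lower, with a median log2 difference of 0.85, and 22 were higher without S18 to S20. Cilp, a matrix protein that binds TGF-β, was at 15.9, 20.3, 19.5, 24.1 and 19.5 scaled CPM in Sham Veh and ran from 57.7 through 147 to 354 in TAC 29P (log2 difference 2.86, SE 0.35, adjusted p = 0.000402). Postn, periostin of activated fibroblasts, was at 53.8, 90.2, 66.9, 118 and 84.8 against 164 to 882 (2.19, SE 0.34, adjusted p = 0.00207). In both genes the treated hearts lay above every Sham Veh heart, yet spread over several fold among themselves.

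Ltbp2, a microfibril-binding protein, differed by 2.70 (adjusted p = 0.00207). Adamtsl2, a fibrillin-binding protein, was at 6.68 to 18.2 scaled CPM in Sham Veh against 24.4 to 39.6 in TAC 29P (1.47, adjusted p = 0.00246). Fmod and Comp, which organise collagen fibrils, had log2 differences of 3.15 and 2.41 that did not pass (adjusted p = 0.0577 and 0.0945). Without S18 to S20 Fmod passed at 4.18 (limma adjusted p = 0.0498), and Comp, at 3.25, did not (limma adjusted p = 0.0734). Their treated libraries ran from 1.99 to 71.1 and from 2.03 to 69.2 scaled CPM, and S19 and S20 were the highest of Sham Veh, at 4.01 and 9.66 for Fmod. Spp1, osteopontin, was at 0.0873 to 4.49 scaled CPM in Sham Veh against 0.381 to 13.8 in TAC 29P (1.49, adjusted p = 0.302). Plod2, a collagen lysyl hydroxylase, and Thbs2 were at 0.00 and 0.07. Summed fibroblast markers (9 genes) ran from 1548 to 2650 scaled CPM in TAC 29P and from 1377 to 2464 in Sham Veh, where S19 and S20 were the highest, and 1 of the 9 (Col1a1) was higher and 1 (Dpep1, −0.75, adjusted p = 0.0496) lower.

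**Figure D3:**
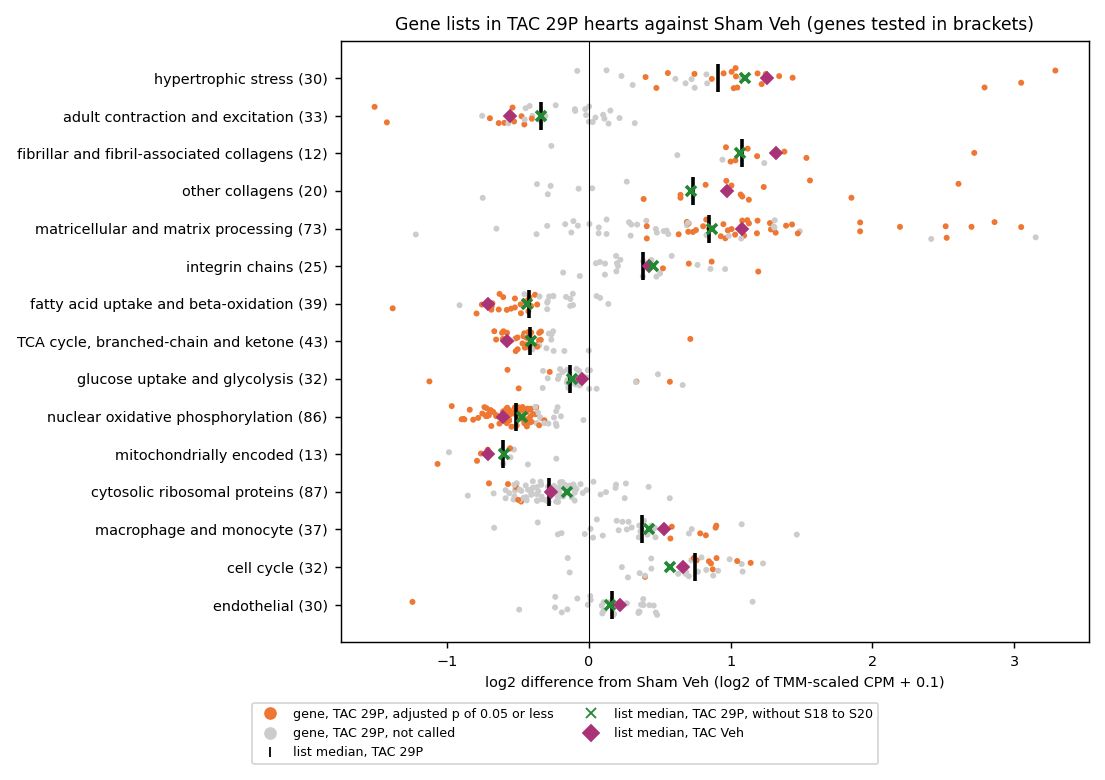
Log2 differences of TAC 29P from Sham Veh for the tested members of 15 gene lists (1 point per gene, orange where the adjusted p is 0.05 or less), with list medians for TAC 29P (bar), for TAC 29P without S18 to S20 (cross) and for TAC Veh (diamond). The TAC Veh medians lack a library that the authors removed because it clustered with Sham mice. Stress and matrix lists lie to the right of 0 and fuel lists to the left, and the TAC 29P median lies nearer to 0 than the TAC Veh median in the stress, contraction, collagen, matricellular, fatty acid, TCA and oxidative phosphorylation lists, whereas it lies farther from 0 in the cell cycle (0.75 and 0.67), glucose (−0.14 and −0.05) and cytosolic ribosomal (−0.28 and −0.26) lists.

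Fuel genes were displaced downward by smaller steps. Of 39 genes of fatty acid uptake and β-oxidation, 0 were higher and 22 lower, with a median log2 difference of −0.42, and 9 were lower without S18 to S20 as well as in the deposited CPM (median −0.12). Ces1d, a carboxylesterase that splits stored fat, was at 66.5, 77.6, 87.4, 101 and 86.8 scaled CPM in Sham Veh and ran from 23.4 through 32.4 to 43.4 in TAC 29P. No treated heart reached the lowest Sham Veh heart (log2 difference −1.38, SE 0.17, adjusted p = 0.000402). Acaa2, the thiolase of the last step of β-oxidation, was at 567 to 705 scaled CPM in Sham Veh and lower in every TAC 29P library (−0.79, adjusted p = 0.0024). Ech1, which shifts double bonds, differed by −0.75 and Hadhb, of the trifunctional protein, by −0.69, while Acadm, the medium-chain dehydrogenase, was at −0.55 (adjusted p = 0.00768). Cpt1b, the muscle gate for fatty acids into mitochondria, overlapped between the groups at 272 to 369 scaled CPM in TAC 29P against 290 to 381 in Sham Veh (−0.11, adjusted p = 0.56). Lipe and Cpt1a were nearest to Sham Veh, at 0.05 and 0.08.

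In the TCA cycle, branched-chain and ketone list, 29 of 43 members were lower and 1 was higher, with a median log2 difference of −0.42. Without S18 to S20, 5 were lower and 1 higher, and in the deposited CPM 4 were lower. The gene that rose was Bdh1, the first enzyme of ketone body use, at 77.5, 65.6, 62.9, 46.8 and 64.0 scaled CPM in Sham Veh and 87.0 to 132 in TAC 29P (0.72, SE 0.13, adjusted p = 0.00406). Mpc2 and Mpc1, which together form the mitochondrial pyruvate carrier, differed by −0.67 (adjusted p = 0.00383) and −0.61 (adjusted p = 0.0174). Bckdhb and Aldh6a1, of branched-chain amino acid breakdown, differed by −0.65 and −0.61, whereas Ogdh, of the TCA cycle itself, was at 0.00 (adjusted p = 0.997).

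Nuclear genes of oxidative phosphorylation were lower in TAC 29P. Of 86 members, 71 were lower and 0 higher, with a median log2 difference of −0.51. In the deposited CPM 35 were lower, and without S18 to S20 16 were lower at a median of −0.47. Cox7a1, the muscle form of a cytochrome oxidase subunit, was at 260, 433, 272, 353 and 316 scaled CPM in Sham Veh and at 144 to 212 in TAC 29P, without overlap (−0.88, SE 0.12, adjusted p = 0.00153). Atp5k, a subunit of ATP synthase, was at 140 to 327 scaled CPM in Sham Veh against 72.7 to 152 in TAC 29P (−0.89, adjusted p = 0.0204). Ndufb1-ps and Ndufs5-ps, at −0.97 and −0.90, are annotated under pseudogene symbols and may share reads with a related gene, so their values are uncertain. The same holds for Ndufa12-ps (−0.78) and Ndufab1-ps (−0.52). Cox6a1 and Uqcrc1 were nearest to Sham Veh, at −0.04 and −0.20. S6 had the highest Sham Veh value for Cox7a1 and Atp5k and, with 38.8%, the largest mitochondrial share of the Sham Veh libraries, and the part of that share in these counts was not tested.

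Of the 13 mitochondrially encoded protein genes, 5 were lower and 0 higher, and 0 were called without S18 to S20, with a median log2 difference of −0.60 in both fits. mt-Nd3, of complex I, was at 2321 to 6237 scaled CPM in Sham Veh and 1138 to 2048 in TAC 29P (−1.07, adjusted p = 0.0186), and mt-Co2, mt-Co3 and mt-Nd1 differed by −0.79, −0.76 and −0.71. mt-Nd5 was at −0.23 (adjusted p = 0.474). Of 87 cytosolic ribosomal protein genes, 5 (5.75%, against 4.89% of all genes) were lower, among them Rps29 (−0.70, adjusted p = 0.0484) and Rpl3l, a form restricted to striated muscle (−0.57, adjusted p = 0.0149). None of the 5 was called without S18 to S20, and in the deposited CPM 2 members were higher and 0 lower. The median of that list was −0.28, or −0.16 without S18 to S20 and 0.03 in the deposited CPM, and many of its genes have pseudogene copies.

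Glucose genes were called in both directions with all libraries, 2 higher and 4 lower of 32. That is 18.8% of the list, against 4.09% higher and 4.89% lower of all genes. With S18 to S20 left out, 0 were higher and 1 lower, and in the deposited CPM 5 were higher and 1 lower. Pfkp and Hk1, enzymes of early glycolysis, were higher (0.57 and 0.34, adjusted p = 0.0245 and 0.0178, but 0.0875 and 0.0843 without S18 to S20). Pfkfb1, which sets the level of a glycolytic activator, was lower at 1.75 to 4.32 scaled CPM in TAC 29P against an overlapping 3.53 to 8.36 in Sham Veh (−1.12, adjusted p = 0.0114), as were Ldhb (−0.57), Eno3 (−0.50) and Pgk1 (−0.28, adjusted p = 0.0274, but 0.03 in the deposited CPM). Among 22 metabolic regulators 2 were lower (9.09%, against 4.89% of all genes). These were Klf15, a factor that drives amino acid and lipid use (−0.82, adjusted p = 0.0434), and Tfb2m, which starts mitochondrial transcription (−0.41, adjusted p = 0.0146). Neither was called without S18 to S20 (adjusted p = 0.336 for Klf15, at −0.45, and 0.0677 for Tfb2m), and in the deposited CPM 3 regulators were higher and 0 lower. Esrra, a nuclear receptor for oxidative genes, was at 0.03. Ppargc1a, its coactivator, was at 74.8, 79.3, 71.9, 211 and 384 scaled CPM in Sham Veh against 40.8 to 106, with a log2 difference of −1.0 (adjusted p = 0.126) that was −0.38 without S18 to S20, the 2 atrial-marked Sham Veh libraries being the highest.

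Integrins are the receptor family of the compound. Of 25 chains, 4 were higher and 0 lower (median log2 difference 0.38), and 1 was higher without S18 to S20. The count depended on scaling, with 14 higher in the deposited CPM and 9 with totals that leave out mitochondrially encoded genes. Itga9, which binds tenascin and osteopontin, was at 73.0, 44.6, 54.4, 55.8 and 42.9 scaled CPM in Sham Veh and at 87.2 to 119 in TAC 29P, without overlap (0.87, SE 0.13, adjusted p = 0.00155, or 0.0242 without those libraries). Itga11, a collagen receptor of fibroblasts, differed by 1.19 (adjusted p = 0.013), Itga4, of leukocytes, by 0.70 (adjusted p = 0.0179) and Itgb5, a partner of αv, by 0.52 (adjusted p = 0.021). Itgb3, the β3 chain of the targeted receptor, was at 1.97, 2.55, 3.70, 4.17 and 5.30 against 2.71 to 8.74 scaled CPM in TAC 29P (0.38, 95% interval −0.35 to 1.12, adjusted p = 0.51). Itgav, its αv partner, was at 25.3 to 35.3 in Sham Veh against 27.1 to 43.5 in TAC 29P (0.11, adjusted p = 0.648).

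Of 14 renin-angiotensin and neprilysin genes, 2 (14.3%, against 4.09% of all genes) were higher. The count was 1 (Ace) without S18 to S20 and 6 in the deposited CPM. Ace, which makes angiotensin II, was at 47.2, 31.1, 61.6, 50.1 and 60.5 scaled CPM in Sham Veh and at 68.8 to 92.6 in TAC 29P, without overlap (0.71, SE 0.16, adjusted p = 0.0104). Anpep, an aminopeptidase of angiotensins, differed by 0.46 (adjusted p = 0.028). Mme, neprilysin, which degrades natriuretic peptides, was at 7.17 to 12.9 in Sham Veh and 4.39 to 9.13 in TAC 29P, with a log2 difference of −0.58 that did not pass (adjusted p = 0.0638).

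Some genes of macrophages and the cell cycle, and a few of mural cells, were higher, with none called without S18 to S20. Of 37 macrophage and monocyte genes 6 (16.2%, against 4.09% of all genes) were higher, with a median log2 difference of 0.37. Among them was Adgre1, the F4/80 antigen, with a difference of 0.83 (adjusted p = 0.00847). Its levels were 9.61 to 13.7 scaled CPM in Sham Veh against 17.4 to 21.7 in TAC 29P. Mpeg1, a pore-forming protein of phagocytes (0.89, adjusted p = 0.0169), and Trem2, a lipid receptor (0.90, adjusted p = 0.0492), were also higher. Of 32 cell cycle genes 9 (28.1%, against 4.09% of all genes) were higher, with a median of 0.75. Kif11, a spindle motor, was at 1.25 to 4.02 scaled CPM in Sham Veh against an overlapping 3.66 to 5.20 in TAC 29P. Its difference was 1.14 (adjusted p = 0.0314), and that of Ube2c was 1.05 (adjusted p = 0.0417). Of 10 mural genes 3 were higher, the pericyte genes Cspg4, Notch3 and Pdgfrb (0.86, 0.74 and 0.65). The list median was −0.07, with 5 positive and 5 negative differences. Summed mural markers overlapped, at 1457 to 1587 scaled CPM in TAC 29P against 1408 to 1580 in Sham Veh. Of 30 endothelial genes only Angpt1, a ligand of the Tie2 receptor, was called, a share of 3.33% against 4.89% of all genes lower. Its log2 difference was −1.24 (adjusted p = 0.0467), with its highest Sham Veh values of 126 and 85.3 in S19 and S20. In the deposited CPM 13 endothelial genes were higher and 0 lower, and with totals that leave out mitochondrially encoded genes 5 and 0.

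Of 31 unfolded protein and integrated stress genes 3 were higher and 1 lower (12.9%, against 4.09% higher and 4.89% lower of all genes). Beside Gdf15, these were Mthfd2, of mitochondrial folate use (1.13, adjusted p = 0.0382), Aldh18a1, of proline synthesis (0.52, adjusted p = 0.0358), and Herpud1, of degradation at the endoplasmic reticulum (−0.77, adjusted p = 0.0153). Without S18 to S20 only Gdf15 and Mthfd2 were called, and in the deposited CPM 10 were higher and 0 lower. Of 23 immediate-early and 19 circadian genes 0 were called. Red cell, adipocyte and mesothelial markers were uncalled, though S18 and S20 had the highest adipocyte sums, at 24.3 and 33.9 scaled CPM against 0.6 to 8.2 in the other 9 libraries.

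The largest differences without overlap among better expressed genes also took in genes of varied roles. Dio2, the deiodinase that activates thyroid hormone, was at 1.95 to 5.83 scaled CPM in Sham Veh and 8.60 to 50.9 in TAC 29P (2.29, adjusted p = 0.00565). Pamr1, a secreted protease-like protein, differed by 1.97 (adjusted p = 0.00406). Nlrc3, a regulator of innate immune signals, was at 3.32, 2.77, 2.50, 2.94 and 2.44 scaled CPM in Sham Veh against 7.28 to 11.5 in TAC 29P (1.64, SE 0.16, adjusted p = 4.74e-05).

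On the lower side stood Etfbkmt, which methylates the electron transfer flavoprotein, at 16.2 to 24.2 scaled CPM in Sham Veh against 6.44 to 12.2 in TAC 29P (−1.07, adjusted p = 0.00153), and Rbfox1, a splicing factor of muscle and nerve (−1.07, adjusted p = 0.0123). Gstk1, a mitochondrial glutathione transferase, and Cmbl, a hydrolase, differed by −0.95 and −0.94 (both adjusted p = 0.00153). Scara5, a ferritin receptor of fibroblasts, differed by −1.04 (adjusted p = 0.0127) and Pla2g5, a secreted phospholipase, by −0.97 (adjusted p = 0.00978). Shld1, of DNA break repair, differed by −1.23 (adjusted p = 0.0231), with 42.7 scaled CPM in S20 and −0.82 (adjusted p = 0.198) without S18 to S20. Ndufs6b, a processed pseudogene (−0.93), and mt-Rnr2, a ribosomal RNA in a polyA library (−0.98), completed that side, and reads of the pseudogene may be shared with its parent gene.

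Untreated TAC hearts, compared with the same Sham Veh libraries, differed in 722 higher genes (4.45%) and 923 lower genes (5.69%). Both comparisons share the Sham Veh libraries, so only their own values are set side by side. The TAC Veh libraries are also those left after the authors removed a TAC Veh library that clustered with Sham mice. Such a removal can widen the TAC Veh differences, and its part in the values below was not tested. List medians were 0.91 for TAC 29P and 1.26 for TAC Veh in hypertrophic stress, 1.08 and 1.32 in fibrillar collagens, −0.42 and −0.71 in fatty acid genes, and −0.51 and −0.61 in nuclear oxidative phosphorylation. For Ces1d the log2 differences were −1.38 and −2.33, for Postn 2.19 and 3.09, for Xirp2 1.34 and 2.11, and for Myh7 3.29 and 3.75. In the direct limma test of TAC 29P against TAC Veh, 0 genes passed adjustment in either direction. An unadjusted p of 0.05 or less was met by 399 genes (2.46%), 233 higher and 166 lower. That share lies below the 0.05 that such a threshold passes on average where no gene differs. The log2 difference of TAC 29P from TAC Veh was 0.95 for Ces1d (95% interval 0.53 to 1.36, limma adjusted p = 0.749). It was −0.77 for Xirp2 (95% interval −1.30 to −0.25) and −0.46 for Myh7 (95% interval −1.12 to 0.19). These intervals are not adjusted for the number of genes. The study named Ces1d, Postn and Xirp2 for differing between TAC 29P and TAC Veh in these same libraries. Their values here are therefore no independent evidence.

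Set against Sham 29P, which shares the treatment, TAC 29P differed in 955 higher genes (5.89%) and 873 lower genes (5.38%). Of the 3 Sham 29P libraries, S14 had the fewest estimated reads (14.2 M) and largest mitochondrial share (40.0%) of the whole study. Its distance from Sham Veh, 0.384, was also the largest, and no fit was run without it. Of the 30 stress genes 20 were higher, of the 12 fibrillar collagens 9, and of the 39 fatty acid genes 23 were lower. Myh7 differed by 3.18 and Ces1d by −1.44 there. Nuclear oxidative phosphorylation had 28 of 86 genes lower (median −0.36), fewer than the 71 against Sham Veh, a difference that was not tested. Summed atrial markers were at 29.4 to 36.6 scaled CPM in the 3 Sham 29P libraries, and Nppa differed by 3.33 (adjusted p = 0.0146).

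Treated hearts were not equally displaced. The median log2 difference of the stress list from the Sham Veh mean was 0.48 in S1, 1.39 in S3, 0.79 in S8, 0.87 in S9, 0.74 in S11 and 1.16 in S18, and in Sham Veh it ran from −0.35 in S13 to 0.67 in S19. S1 lay inside that range only because of S19, since the next Sham Veh library was at 0.09, and the other 5 treated hearts lay above it. Measured from the mean of S5, S6 and S13 alone, S1 was at 0.69 and the highest of those 3 at 0.21. For fibrillar collagens the 6 hearts were at 0.49, 1.66, 0.84, 1.17, 0.88 and 1.68, all above the Sham Veh maximum of 0.32. For fatty acid genes they were at −0.18, −0.64, −0.31, −0.52, −0.36 and −0.62, where S1 lay within the Sham Veh range of −0.22 to 0.20, again because of S19, the next library being at −0.04. From S5, S6 and S13 alone S1 was at −0.24 and the lowest of those 3 at −0.15.

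S1 was thus the nearest of the 6 to Sham Veh in all 3 lists. S3 was the farthest in the stress and fatty acid lists and S18 in the collagen list. Nuclear oxidative phosphorylation was at −0.36 to −0.63 in treated hearts against −0.30 to 0.35 in Sham Veh. At the gene level S1 and S3 were the lowest and the highest treated libraries for Myh7, Nppa, Col1a1 and Postn, with Postn at 164 and 882 scaled CPM. All 6 hearts carry the same labels for strain, dose and time.

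**Figure D4:**
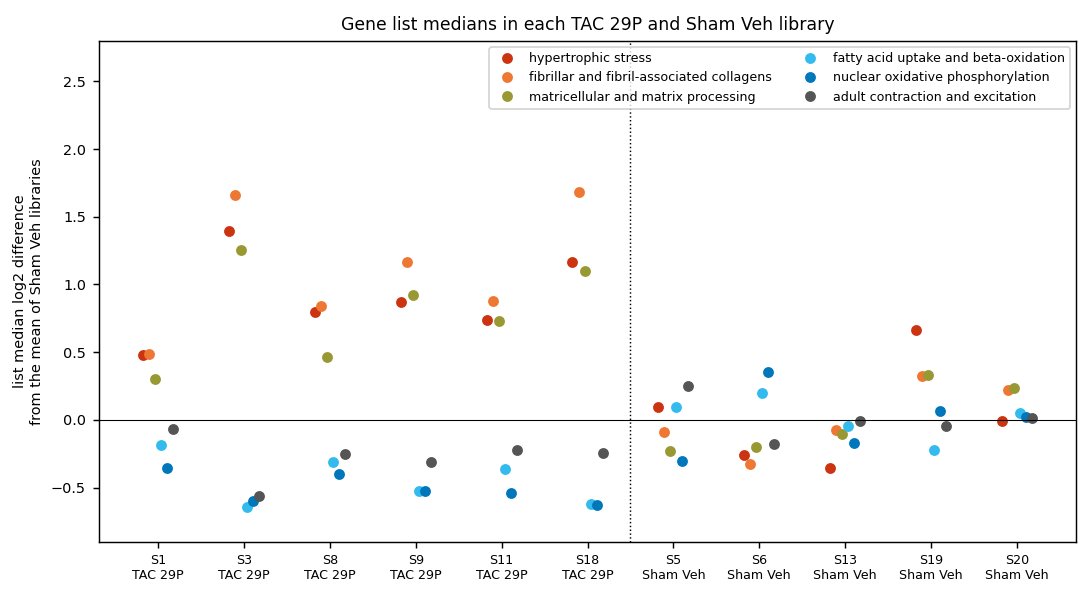
Median log2 difference of 6 gene lists from the mean of the Sham Veh libraries in each TAC 29P library (left) and each Sham Veh library (right, own library left out of the mean), with 1 coloured point per list. Stress and collagen medians run from 0.48 in S1 to 1.68 in S18 among treated hearts, while Sham Veh medians of all 6 lists lie between −0.35 and 0.67.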

How the data were processed

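PolyA RNA of the left ventricular apex of 17 mice was sequenced. Per the labels and methods, alignment was to mm10 (STAR 2.3.7, Partek Flow), and the authors deposited CPM (counts per 1 M reads plus a constant of 1e-04) for 21798 genes. The counting tool and the strand setting are not given in the sources used here. Only 79.5 to 81.5% of values under 2 CPM were whole multiples of 1 read (tolerance 0.05), so read counts were not recovered and depth is an estimate from those steps.

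Columns were matched to the labels, and 0 columns were left unused. Genes with at least 0.5 CPM in 3 libraries were kept, CPM were divided by TMM factors (trims 0.3 and 0.05) because the mitochondrial share differed between groups, and log2 of the scaled CPM plus 0.1 was fitted by group over all 17 libraries with limma 3.58.1 (R 4.3.3, empirical Bayes, Benjamini-Hochberg adjustment). Library distances were compared by exact permutation tests in scipy 1.17.1 (Python 3.11.15, numpy 2.4.6, pandas 2.3.3, matplotlib 3.10.9). The fit was tested on simulated data with 200 changed genes a set. At a 2-fold change 71.8% of them were called, at 1.4-fold 27.2%, and of unchanged genes 0.0275%.

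Genes were named by a rule: a set of disease genes, in each list up to 4 called genes in each direction with the largest difference and the 2 nearest to 0, up to 12 genes each way without overlap at a mean of at least 5 scaled CPM, genes named by the study, and genes with wide spread. A few genes that the rule names are not reported here. Members, lists and rules were chosen with earlier results of these data known. The genes named by the study had been picked from these samples and are no independent evidence, and of those 31 genes 10 were higher and 10 lower. Alternatives changed the scaling, constant, filter, fitted groups, libraries and threshold, and the side-by-side comparisons were added to them after seeing the data.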

Additional observations from a re-analysis of the deposited data

Results flagged for a closer look

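For each named gene, the highest and lowest libraries of TAC 29P and of Sham Veh were compared with the rest of their group by Dixon's ratio on log2 of scaled CPM plus 0.1, and 14 of 244 groups held a library that stood apart. Chance flags about 1 in 20 groups. Of the 14, 7 were in S18 and the part of its atrial transcripts in them was not tested.

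Among the S18 values, the atrial genes Myl7 (8.22), Myl4 (8.85) and Sln (7.17) stood above the other TAC 29P libraries, as did Itgav, the αv integrin chain (5.45, next value 4.92), and Corin, the natriuretic peptide protease (7.35, next value 6.71). The stress-induced Atf3 (6.44) and Nr4a3 (5.87) also stood above the other TAC 29P libraries there. In S3, Col8a1 was high (7.96, next value 7.09) and Scara5 low (2.41, next value 3.35). In S11, the pseudogene Ndufs6b was low (3.36, next value 4.21).

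In Sham Veh, Nppb was high in S19 (9.06, next value 8.02) and Hadhb high in S6 (9.69, next value 9.27). Col16a1 was low in S6 (0.89, next value 1.92) and Pamr1 low in S5 (0.58, next value 2.0).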

How the results depend on the processing

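The counts of called genes (664 higher, 793 lower) depended on scaling and on libraries. They were 4959 higher and 215 lower in the deposited CPM, 2200 and 367 with totals that leave out mitochondrially encoded genes, 179 and 143 without S18 to S20, and 2239 and 2168 at an unadjusted p of 0.05. A covariate for the run of animal numbers left 521 lower, and within the largest run 231. Leaving out 1 library at a time gave 301 to 931 higher genes and 391 to 1095 lower genes, and the count fell by over 1.5 times without S3 (301 and 420), S6 (329 and 391), S9 (381 and 453), S11 (371 and 474), S19 (418 and 496) or S20 (427 and 482).

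The 1233 genes without overlap became 2705 in the deposited CPM and 3096 without S18 to S20, where fewer libraries can overlap, and 1303 to 2026 with 1 library left out (2026 without S18, 1948 without S5). The difference in library distance of 0.034 was 0.114 in the deposited CPM (exact permutation p = 0.00866), 0.0037 without S18 to S20 (p = 0.893, exact) and 0.0176 to 0.0531 with 1 library left out, the highest without S5. For TAC Veh against Sham Veh the counts were 3827 higher and 321 lower in the deposited CPM, 1704 and 518 without mitochondrial totals, and 597 lower without S18 to S20. For TAC 29P against Sham 29P they were 5110 and 187 in the deposited CPM and 2101 and 380 without mitochondrial totals. Pgk1, at −0.28, was at 0.03 in the deposited CPM, and Nr4a3, at −0.41, was at 1.21 within the largest run. For TAC 29P against TAC Veh, 0 genes passed in all 4 alternatives run. Apart from these scalings and omissions the cause of a moved count was not tested.

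Of 122 named genes 88 were called, 53 of them in every fit with 1 library left out and 35 lost in at least 1. Of the 88, 44 were no longer called without S18 to S20, 42 within the largest run and 23 with the run as a covariate. No paired analysis was possible because the groups share no replicate numbers. S18 to S20 carry atrial transcripts and are the only libraries of their run, and the TAC Veh and Sham 29P groups hold 3 libraries each. Depth limits genes near the filter, and fold changes of low genes are understated by the added constant.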

Other observations

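Immediate-early genes, which respond within minutes to handling and stress, had 0 of 23 called members. The members Atf3 and Nr4a3, chosen after their values were seen, were high in the 3 libraries with atrial transcripts, while the list median from the Sham Veh mean was 0.72 in S18, −0.20 in S19 and −0.03 in S20. Atf3, a stress-induced transcription factor, was at 86.4, 43.1 and 80.0 scaled CPM in S18, S19 and S20 and at 3.98 to 10.4 in the other 8 libraries. Nr4a3, an orphan nuclear receptor of the same kind, was at 58.3, 41.9 and 88.2 against 2.01 to 9.26. Dusp1 and Zfp36, which are induced by the same stimuli, had log2 differences of −0.02 and −0.07 between TAC 29P and Sham Veh. S18 to S20 fall on both sides of that comparison, so it cannot show whether Dusp1 and Zfp36 were also high in those libraries.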
